A study of Mus musculus with 12 samples.

Results

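The IGF and insulin receptor genes described here are 10 genes of the 21671 in the table, chosen by symbol for their place in the pathway and not by their values. They are the ligand gene Igf1, the receptor genes Igf1r and Insr, the receptor substrate genes Irs1 and Irs2, and the binding protein genes Igfbp2, Igfbp3, Igfbp4, Igfbp6 and Igfbp7. RNA was sequenced from serum-starved, confluent 3T9MycER;YAP cells, an immortalized mouse embryonic fibroblast line, in 4 groups of 3 libraries: OHT, dox, OHT+dox and mock. The growth medium of all groups is listed with 10% serum. All groups carry the constitutively expressed MycER fusion protein, which 400 nM 4-hydroxytamoxifen (OHT) activates, and a vector from which 2 µg/mL doxycycline (dox) induces YAP S127A, a mutant that escapes cytoplasmic retention by the Hippo kinases. The OHT group received OHT, the dox group dox, the OHT+dox group both, and the mock group neither. It is 1 transduced line, and the parental cells treated with doxycycline are not analysed here. The effects of YAP S127A and of doxycycline itself therefore cannot be told apart. No cells without MycER are analysed here either, so the effects of MycER activation and of OHT itself cannot be told apart. The study asked how active Myc and YAP together change transcription in cells held quiescent by confluence and lack of serum.

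IGF1 and insulin bind related receptor tyrosine kinases, the products of Igf1r and Insr. The active receptors phosphorylate the docking proteins IRS1 and IRS2, which recruit PI3K, and AKT and mTORC1 then promote growth and survival while AKT keeps FOXO factors out of the nucleus. IGF binding proteins hold IGFs in the extracellular fluid and can limit or prolong their action, and IGFBP7 is a related protein that binds IGFs weakly. IGF1 is a classical serum mitogen for fibroblasts, which also secrete several of the binding proteins.

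Group means of normalized counts were rebuilt from the deposited comparisons as described under the processing. Normalized counts are read counts divided by the size factor of the library. Each standard error (SE) comes from a spread per gene recovered from the deposited folds and adjusted p-values. That spread is an estimate of the authors' model, not the scatter seen among the 3 libraries of a group. No value per library entered, so ranges and overlaps of single libraries are not given. Nothing says whether the libraries came from separate cultures, so p-values reflect a spread among libraries that may be technical. Being bulk RNA, they cannot tell fewer cells of a type from less RNA per cell. Mean normalized counts summed to 8299690, 8196010 and 8184510 in the comparisons of OHT, dox and OHT+dox with mock. Of the 10 genes, 8 were among the 12259 tested, Igfbp4 had too few reads for its spread to be recovered, and Igfbp3 was all but unread. The fibroblast label was checked on 10 markers, which summed to 32492 to 34613 normalized counts, and the highest in the OHT+dox comparison, Col1a2, reached 5815. Of the 10 markers, 1 lay under 1 normalized count and 9 were tested: 1 fell with OHT, 0 changed with dox and 2 fell with OHT+dox against mock, with median log2 fold changes of −0.13, −0.0024 and −0.18. Their part in the falls described below was not tested. Macrophage, epithelial, endothelial, muscle, adipocyte and hepatocyte markers summed to at most 47.7, 3.50, 4.67, 4.01, 3.04 and 0.157, and most of the macrophage sum came from Cd68, at 41.1 in the OHT+dox comparison.

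The promoters of Irs1, Irs2 and Igf1, which passed the test in at least 1 comparison, are shown because Myc binds the E-box CACGTG and YAP acts through TEAD factors, which bind GGAATG. Windows from 250 bases before to 50 after a RefSeq start site (build GRCm38.p6) were found for 9 of the 10 genes, all but Insr, 10 windows in all. They were searched on both strands for CACGTG, for GGAATG and for the FOXO motif GTAAACA, which do not overlap one another in these windows. Capitals mark a match.
Irs1 (chr1:82291390-82291689, minus strand): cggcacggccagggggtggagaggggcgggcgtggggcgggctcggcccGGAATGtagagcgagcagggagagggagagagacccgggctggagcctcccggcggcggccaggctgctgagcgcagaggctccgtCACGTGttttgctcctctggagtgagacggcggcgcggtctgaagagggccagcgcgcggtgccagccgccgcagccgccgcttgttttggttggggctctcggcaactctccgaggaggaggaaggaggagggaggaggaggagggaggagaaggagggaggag
Irs2 (chr8:11008880-11009179, minus strand): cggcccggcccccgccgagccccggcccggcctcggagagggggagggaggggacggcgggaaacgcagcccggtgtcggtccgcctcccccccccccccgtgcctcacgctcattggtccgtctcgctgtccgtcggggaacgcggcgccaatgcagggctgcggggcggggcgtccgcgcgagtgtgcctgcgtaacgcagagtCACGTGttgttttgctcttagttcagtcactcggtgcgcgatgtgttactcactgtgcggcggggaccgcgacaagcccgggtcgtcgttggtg
Igf1 (chr10:87860861-87861160, plus strand, 1 of the gene's start sites): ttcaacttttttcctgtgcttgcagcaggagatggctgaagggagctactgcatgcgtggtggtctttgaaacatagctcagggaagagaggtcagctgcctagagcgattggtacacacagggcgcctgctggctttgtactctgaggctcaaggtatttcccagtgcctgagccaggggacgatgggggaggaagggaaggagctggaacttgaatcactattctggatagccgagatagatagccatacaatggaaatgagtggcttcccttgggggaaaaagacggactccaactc
The Irs1 window held an E-box beginning 115 bases before the start site and a TEAD motif beginning 201 bases before it. The Irs2 window held an E-box beginning 44 bases before the RefSeq start site, and the Igf1 window held none of the motifs. The Irs2 window lies wholly upstream of the gene's span in GENCODE M21 (chr8:10984681-11008458), so the E-box is farther from the GENCODE start. An E-box was also found in 1 of the windows of Igfbp2, 142 bases before its start site. Over all 32851 windows, 7.15% held CACGTG, 14.7% GGAATG and 3.65% GTAAACA. A match is a description of the sequence, and binding was not measured in these libraries.

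Per length, the binding protein gene Igfbp2 had the highest mean of the set, and Igf1 one of the lower means. Levels were set per kb of exon in GENCODE M21, since long transcripts gather more reads. Igfbp2 stood at 916, 1000.05 and 956 normalized counts per kb in the OHT, dox and OHT+dox groups and at 941 in mock. Irs1 had 506, 643 and 574 per kb in the OHT, dox and OHT+dox groups and 540 in mock. Igf1r had 410, 517 and 408 per kb in those groups and 477 in mock. These are the level of a gene in each group, not differences between groups. Below them, in the order OHT, dox, OHT+dox and mock, lay Igfbp7 (277, 331, 271 and 289 per kb), Irs2 (217, 292, 231 and 282) and Insr (221, 215, 198 and 233). The receptor and substrate genes all had higher means per kb than the ligand gene Igf1, which had 23.5, 29.3 and 22.0 per kb in the treated groups and 35.3 in mock. Igfbp6 lay close to Igf1 at 35.0, 39.6 and 30.1 per kb in the treated groups and 32.0 in mock. Igfbp4 was near 2 per kb.

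**Figure D1:**
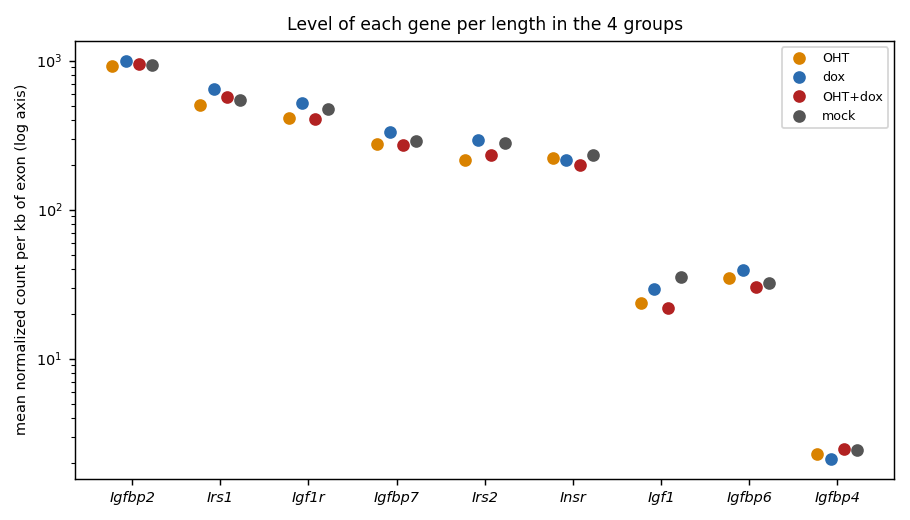
Level of each gene per length (y axis, mean normalized count per kb of exon, log axis) in the OHT, dox, OHT+dox and mock groups, 1 point per group of 3 libraries. Igfbp2 lies highest at 916 to 1000.05 per kb, the receptor and substrate genes in the middle and Igfbp4 lowest at 2.13 to 2.48.

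The ligand gene Igf1 (chr10:87858265-87937042, GRCm38) fell against mock in both groups with OHT. Its mean normalized count was 233 ± 19.4 in OHT cells, 290 ± 23.7 in dox cells and 218 ± 18.3 in OHT+dox cells, against 350 ± 28.2 in mock cells (± SE, n = 3 libraries per group). Both groups with OHT stood lowest, mock highest and dox between them. Against mock, Igf1 fell with OHT, to 0.666 times the level (log2 fold change −0.59, SE 0.17, adjusted p = 0.00387 from the Wald test over all 12259 genes), and with OHT+dox, to 0.624 times (−0.68, SE 0.17, adjusted p = 0.000267). With dox alone its log2 fold change was −0.27, SE 0.17, and did not pass (adjusted p = 0.336). Adding dox to OHT moved it by −0.09, with a 95% interval of −0.43 to 0.24, and did not pass (adjusted p = 0.865). Against dox cells, OHT+dox gave −0.41 (adjusted p = 0.0655) and OHT −0.32 (adjusted p = 0.218). The 3 genes closest to Igf1 in their log2 fold changes against mock, among 9648 genes with a mean normalized count of at least 100, were Serpinb9, Mgat4a and Gata2, at distances of 0.0400, 0.0471 and 0.0530 over 3 comparisons that share their mock libraries. Gata2 had −0.56 with OHT, −0.29 with dox and −0.72 with both.

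Of the receptor genes, Insr passed in 1 comparison and Igf1r in none. Igf1r (chr7:67952827-68233668), the receptor of IGF1, had 4673 ± 365 normalized counts in OHT cells, 5902 ± 460 in dox cells, 4652 ± 363 in OHT+dox cells and 5446 ± 425 in mock cells (± SE). Both groups with OHT were the lower pair, but no pair of groups passed the test for Igf1r. Its log2 fold changes against mock were −0.22 with OHT, 0.12 with dox and −0.23 with both, each with SE 0.16. That SE rests on a dispersion averaged over comparisons. The SE recovered from the single comparison with mock was 0.12 for OHT and 0.23 for dox. For OHT+dox against mock, the lowest adjusted p of the Wald test over the alternative settings given at the end was 0.0577. The widest gap was between OHT+dox and dox, −0.34, with a 95% interval of −0.66 to −0.03 and an adjusted p of 0.112.

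Insr (chr8:3150922-3279617), which encodes the insulin receptor, fell with OHT+dox against mock, its single call. It had 2071 ± 86.4 normalized counts with OHT, 2007 ± 83.9 with dox and 1856 ± 77.8 with OHT+dox, against 2181 ± 90.8 in mock (± SE). OHT+dox against mock gave 0.851 times the level (log2 fold change −0.23, SE 0.09, adjusted p = 0.0187 from the Wald test), while OHT gave −0.08 and dox −0.12. The direct comparisons of OHT+dox with OHT (−0.16, SE 0.09, adjusted p = 0.351) and with dox (−0.11, SE 0.09, adjusted p = 0.387) did not pass. A difference between the response of Insr to both treatments and to 1 of them is therefore not shown.

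Of the receptor substrate genes, Irs2 fell with OHT and Irs1 rose with dox. Irs2 (chr8:10984681-11008458) had 1371 ± 68.7 normalized counts in OHT cells, 1848 ± 91.4 in dox cells and 1464 ± 73.1 in OHT+dox cells, against 1781 ± 88.3 in mock cells (± SE). Against mock it fell with OHT (log2 fold change −0.38, SE 0.10, adjusted p = 0.00198 from the Wald test) and with OHT+dox (−0.28, SE 0.10, adjusted p = 0.0161), and dox gave 0.05, with a 95% interval of −0.15 to 0.25. It was also lower in both groups with OHT than in dox cells (−0.43 for OHT, adjusted p = 0.000381, and −0.34 for OHT+dox, adjusted p = 0.00724). The comparisons of OHT with mock and of OHT+dox with dox are between separate groups, and Irs2 passed in both. They are not independent, since the spread was estimated over all groups and each treated mean was rebuilt with the same mock mean.

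Irs1 (chr1:82233101-82291416) was the only one of these genes that rose against mock, and it did so with dox. Its mean normalized counts were 4631 ± 171 with OHT, 5881 ± 216 with dox and 5247 ± 193 with OHT+dox, against 4941 ± 182 in mock (± SE). The rise with dox came to 1.19 times the mock level (log2 fold change 0.25, SE 0.08, adjusted p = 0.0119 from the Wald test). OHT gave −0.09 and OHT+dox 0.09 against mock, and neither passed. OHT cells had less Irs1 than dox cells (−0.34, SE 0.08, adjusted p = 9.30e-05). When dox was added to OHT, Irs1 was 0.18 higher, with SE 0.08 and a 95% interval of 0.03 to 0.33. This did not pass the Wald test over all genes (adjusted p = 0.162). In GENCODE M21, 30.9% of the exon bases of Irs1 are shared with Gm9747 on the opposite strand, and the library kit did not keep the strand, so reads of the pair cannot be told apart. The shared parts are 2.56% for Irs2 (with 9530052E02Rik) and 7.03% for Igfbp7 (with Polr2b), also on opposite strands.

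**Figure D2:**
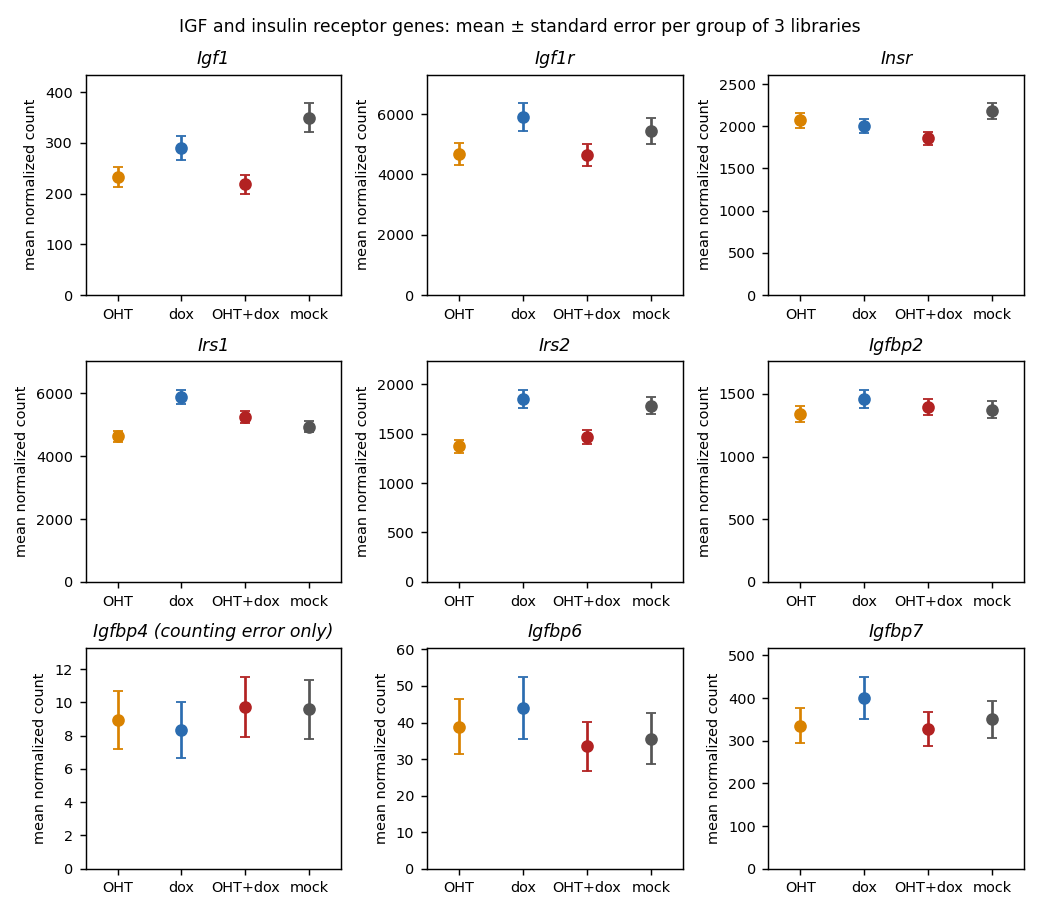
Mean normalized count (y axis, from 0) of 9 genes in the OHT, dox, OHT+dox and mock groups, as points with lines of 1 standard error, 3 libraries per group; for Igfbp4 the lines cover counting error only. Igf1 lies at 233 and 218 in the groups with OHT and at 350 in mock, and Igfbp2 between 1337 and 1460 in all groups.

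None of the binding protein genes passed in any comparison. Igfbp2 (chr1:72824503-72852474), whose product binds both IGFs, was measured most tightly of them: it had 1337 ± 64.5 normalized counts with OHT, 1460 ± 70.1 with dox and 1396 ± 67.2 with OHT+dox, against 1374 ± 66.2 in mock (± SE). For OHT+dox against mock its log2 fold change was 0.02, with a 95% interval of −0.17 to 0.22, the narrowest interval among these binding protein genes. Igfbp7 (chr5:77349240-77408041) had 335 ± 40.9 with OHT, 401 ± 48.7 with dox and 327 ± 40.1 with OHT+dox, against 350 ± 42.7 in mock. Its coefficient of variation beyond counting error, the square root of the rebuilt dispersion, was 20.5%, against 7.90% for Igfbp2. The interval for OHT+dox against mock ran from −0.58 to 0.39. Against mock the SE of Igfbp7 was 0.25 with OHT and with dox. The SEs recovered from those single comparisons were 0.18 and 0.16. With the largest of the 3 recovered dispersions in place of their mean, both SEs were 0.36. That dispersion came from OHT+dox against mock, so the interval given for that comparison may be too narrow. Igfbp6 (chr15:102144362-102149511), whose product prefers IGF2, had 38.9 ± 7.53 with OHT, 44.0 ± 8.42 with dox and 33.5 ± 6.60 with OHT+dox, against 35.6 ± 6.97 in mock. Its coefficient of variation beyond counting error was 29.5%, and its interval for OHT+dox against mock ran from −0.88 to 0.70 on the log2 scale.

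Igfbp4 (chr11:99041244-99054392) was barely expressed, and its means were rebuilt with counting error in place of the spread between libraries. They came to 8.95 with OHT, 8.34 with dox and 9.73 with OHT+dox, against 9.58 in mock, with counting errors of 1.67 to 1.80, and no test was made. Igfbp3 (chr11:7206086-7213923), which encodes the main IGF carrier of serum, averaged 0.152 normalized counts over the OHT and mock libraries and was listed at 0 in the other comparisons. This would be the value of 1 read in 1 OHT library if the size factor of that library, which is not given, were 1.10. A count of 0 reads in a group of 3 libraries allows up to 3 reads, or 1 per library.

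The calls among these genes were set beside those among all genes. With OHT, 2 of the 8 tested fell and 0 rose, where 8.96% of all genes fell and 12.7% rose. With dox, 1 rose and 0 fell, beside 6.25% and 4.54% of all genes. With OHT+dox, 3 fell and 0 rose, beside 19.2% and 20.8%. The median log2 fold changes of the 8 genes were −0.08, 0.10 and −0.16 in these comparisons, against −0.01 each over all genes. In OHT+dox against OHT, 0 of the 8 passed in either direction, beside 2.62% of all genes higher and 2.16% lower. OHT+dox against dox lowered 1 and raised 0 (8.89% and 12.7% of all genes), and OHT against dox lowered 2 and raised 0 (7.55% and 8.7%). All 8 had a negative log2 fold change in OHT+dox against dox, with a median of −0.31 against −0.0020 over all genes, although Irs2 alone passed. The 9 fibroblast markers tested were also all negative there, with a median of −0.17 and 1 called lower, and their part in this was not tested. Under the stricter Holm adjustment none of the calls of these 8 genes remained. The comparisons with mock share its libraries, so their values are not independent of each other.

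**Figure D3:**
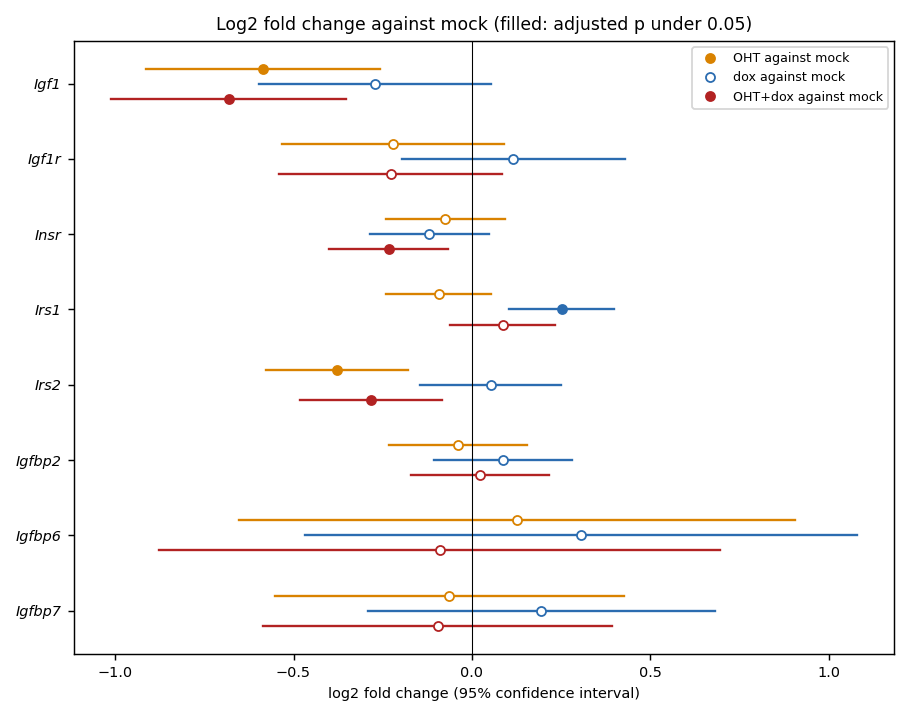
Log2 fold change against mock (x axis) of the 8 genes tested, with 95% confidence intervals, for OHT, dox and OHT+dox; filled points have an adjusted p under 0.05. Igf1 and Irs2 lie left of 0 with OHT and with OHT+dox, Insr with OHT+dox, and Irs1 lies right of 0 with dox at 0.25.

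**Figure D4:**
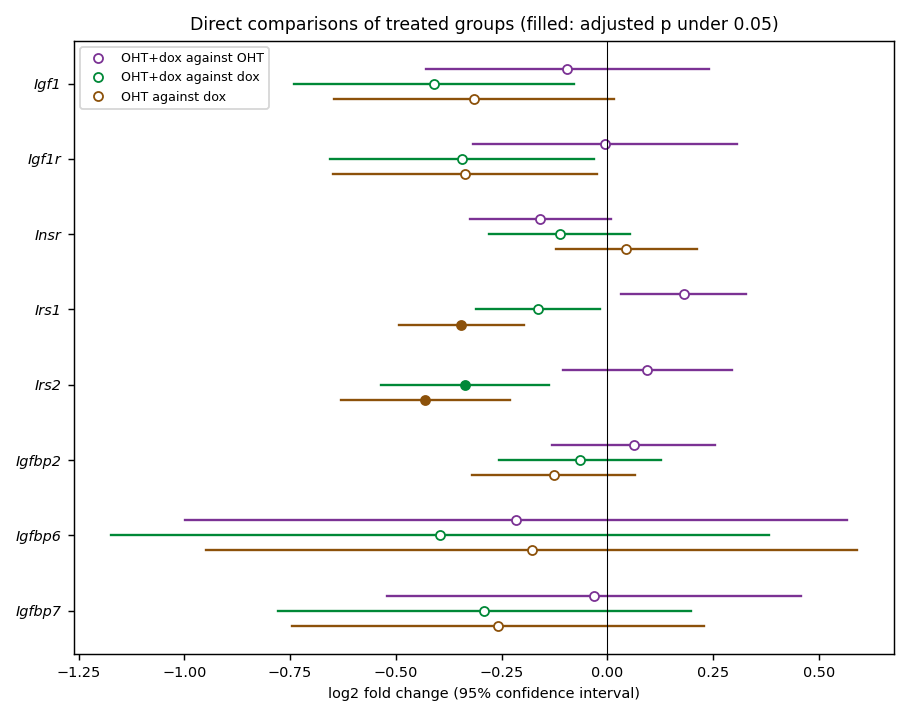
Log2 fold change (x axis) between treated groups for the same 8 genes, with 95% confidence intervals; filled points have an adjusted p under 0.05. Irs2 lies at −0.34 for OHT+dox against dox and at −0.43 for OHT against dox, Irs1 at −0.34 for OHT against dox, and no gene is filled for OHT+dox against OHT.

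The log2 response to OHT+dox was also compared with the responses to OHT and to dox added together. None of the 8 genes passed this interaction test: the differences ran from −0.52 for Igfbp6 to 0.18 for Igf1, the smallest unadjusted p was 0.352, and 0 of the 8 had an unadjusted p under 0.05. Over all genes 0 passed the Wald test (0%), and 132 reached an unadjusted p of 0.05 or less. Its z-values spread with a standard deviation of 0.694, less than the 1 that a test without any effect should give, so the absence of calls is no sign of additivity. The tests between pairs of groups take their standard errors from the same spread per gene. A pair of groups that did not pass is likewise no sign of equal levels.

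Among other genes of the IGF system, 13 of 21 were tested, and Ins1, Ins2, Igfbp1 and Igfbp5 were among those with too few reads. With OHT 1 rose and 1 fell, with dox 1 rose and 1 fell, and with OHT+dox 2 rose and 2 fell, with medians of −0.16, −0.0035 and −0.08. Among all genes 12.7% rose and 8.96% fell with OHT, 6.25% and 4.54% with dox, and 20.8% and 19.2% with OHT+dox, so these counts lie near the background. Igf2r, which clears IGF2 by endocytosis, fell in each comparison with mock. It had 4252 ± 144 normalized counts with OHT, 4160 ± 141 with dox and 3717 ± 126 with OHT+dox, against 4812 ± 162 in mock, and the log2 fold changes were −0.18, −0.21 and −0.37 (SE 0.07, adjusted p = 0.0454, 0.0261 and 6.92e-07). Stc2, whose product inhibits the protease PAPP-A that frees IGFs from IGFBP4, rose with dox (0.87, SE 0.17) and with both (1.14, SE 0.17), and OHT gave 0.44 (adjusted p = 0.0530). Ide, which encodes the insulin-degrading enzyme, rose with OHT (0.29) and with both (0.41), and Lrp1, an endocytic receptor that can bind IGFBP3, fell with both (−0.41, adjusted p = 0.0220). The ligand gene Igf2, named here for its role and outside the rule for named genes, had 204 ± 15.8 with OHT, 253 ± 19.1 with dox and 191 ± 15.0 with OHT+dox, against 238 ± 18.1 in mock, and did not pass against mock. It was lower in OHT+dox than in dox cells (−0.40, SE 0.16, adjusted p = 0.0461).

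Of 20 genes of adaptors and inhibitors that act at the receptors, 19 were tested: 1 rose and 3 fell with OHT, 0 rose and 2 fell with dox, and 2 rose and 6 fell with OHT+dox, with medians of −0.19, 0.03 and −0.15. The shares of all genes that rose and fell were 12.7% and 8.96% with OHT, 6.25% and 4.54% with dox, and 20.8% and 19.2% with OHT+dox. Sh2b2, an adaptor of the insulin receptor, had 229 ± 18.0 normalized counts with OHT, 135 ± 11.4 with dox and 265 ± 20.4 with OHT+dox, against 124 ± 10.6 in mock, and rose with OHT (0.89, SE 0.17) and with both (1.10, SE 0.17). Gab2, a docking adaptor that recruits PI3K, fell with OHT (−0.65, SE 0.10) and with both (−0.42, SE 0.10). Cblb, a ubiquitin ligase, and Socs2, a feedback inhibitor of growth hormone signaling, fell with dox (−0.45 and −0.47) and with both (−0.78 and −0.57). Shc1, an adaptor that links receptors to RAS, fell with OHT (−0.21) and with both (−0.35), and Dok1, an inhibitory docking protein, fell with both (−0.27, adjusted p = 0.0342).

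Downstream, all 37 genes of PI3K, AKT, mTORC1 and FOXO were tested. With OHT 4 rose and 6 fell, with dox 5 rose and 10 fell, and with OHT+dox 8 rose and 12 fell, with medians of −0.04, −0.03 and −0.02. Over all genes, 12.7% rose and 8.96% fell with OHT, 6.25% rose and 4.54% fell with dox, and 20.8% rose and 19.2% fell with OHT+dox. Eif4ebp1, which encodes a translational repressor that mTORC1 inactivates, rose in each comparison with mock (0.36, 0.55 and 0.75, SE 0.11 each). Foxo3, a transcription factor restrained by AKT, fell in each (−0.24, −0.48 and −0.56, SE 0.09 each), and Foxo1 fell with OHT (−0.44) and with both (−0.56), with 0.02 for dox. Foxo4, chosen after its values were seen, fell in each as well (−0.30, −0.38 and −0.48). FOXO factors are known to activate Irs2 and Insr in other tissues, and whether their levels bear on these genes was not tested. Trib3, an inhibitor of AKT, had 36.3 ± 5.12 normalized counts with OHT, 106 ± 12.5 with dox and 91.5 ± 10.97 with OHT+dox, against 57.3 ± 7.37 in mock, and rose with dox (0.89, SE 0.25) and with both (0.67, SE 0.25). Of the sestrins, which restrain mTORC1, Sesn2 rose with dox (0.59) and with both (0.57), while Sesn3 fell with dox (−0.44) and with both (−0.66). Sesn1, outside the rule for named genes and chosen after its values were seen, also fell with dox (−0.49, SE 0.09) and with both (−0.53, SE 0.09). Deptor, an mTOR inhibitor also chosen after its values were seen, had 1609 ± 80.8 with OHT, 742 ± 39.0 with dox and 1412 ± 71.3 with OHT+dox, against 998 ± 51.3 in mock. It rose with OHT (0.69, SE 0.10) and with both (0.50, SE 0.10), and fell with dox (−0.43, SE 0.11).

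**Figure D5:**
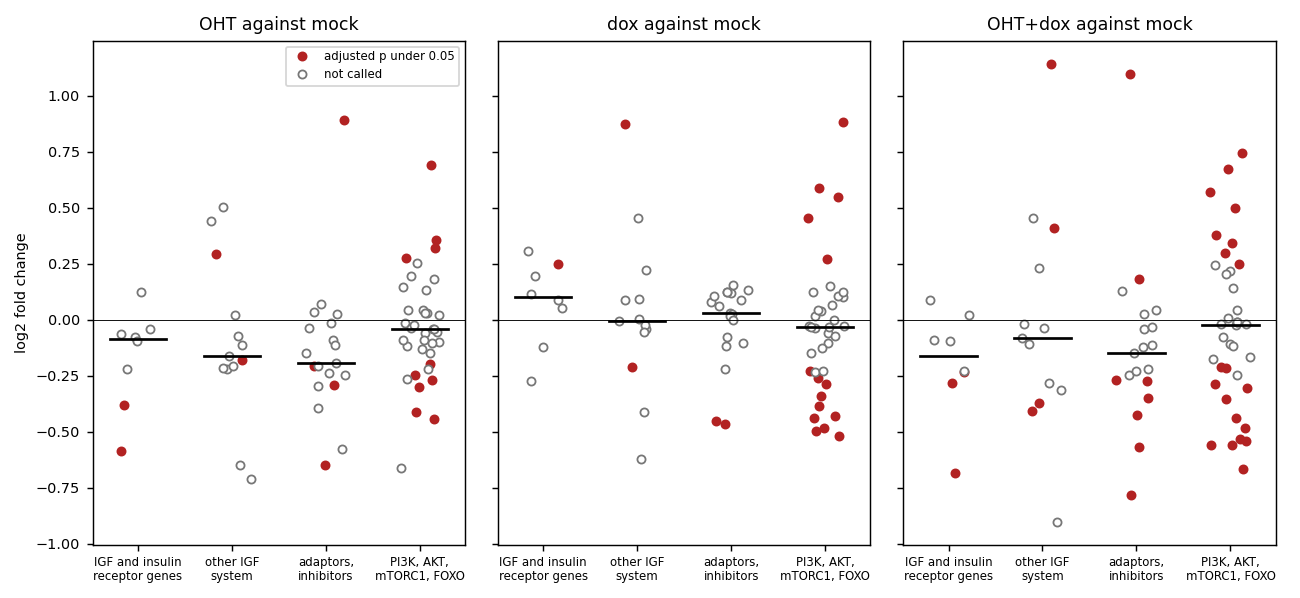
Log2 fold change against mock (y axis) of the genes tested in 4 lists, 1 point per gene, for OHT, dox and OHT+dox; red points have an adjusted p under 0.05 and black lines are medians. The medians lie between −0.19 and 0.10, and red points stand on both sides of 0 in the pathway lists.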

How the data were processed

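Total RNA libraries, unstranded and without poly(A) selection, were sequenced in 4 groups of 3. Per the labels, the authors used TopHat2 2.0.8, mm9, SAMtools, featureCounts 1.4.5-p1 and DESeq2; which annotation was counted is not stated in these sources. The authors' deposited table gives, for each comparison with mock, the mean count over 6 libraries after division by size factors, a log2 fold change shrunken toward 0, an adjusted p-value and a call, which was not used. The deposited log2 folds and p-values are the authors' own and are not printed. They served only to rebuild group means: the Benjamini-Hochberg adjustment was reversed to give p, standard errors by dividing fold by z, and the shrinkage was undone with prior standard deviations of 0.446 (OHT), 0.337 (dox) and 0.619 (OHT+dox), read from the upper limit of the standard errors. Comparisons were put on 1 scale by their mock means, which then lay within a median log2 distance of 0.000603 for OHT and 0.000210 for dox. A gene's dispersion is the mean over the comparisons with p up to 0.9. Wald tests, two-sided, compared the groups (Python 3.11.15 with numpy 2.4.6, pandas 2.3.3 and scipy 1.17.1), with Benjamini-Hochberg adjustment over 12259 genes and called at an adjusted p under 0.05. The steps were also run on counts simulated from the rebuilt means and dispersions with the same form of shrinkage. That run cannot show how well this form fits the deposited values. This follows the planned design; the tests for counts per library did not apply. All 10 genes are named; of each other list, up to 6 genes called against mock with the largest absolute log2 fold change with both. The genes, lists and tests were chosen with earlier results of these data known. Exon lengths are from GENCODE M21 (GRCm38) and promoters from RefSeq (GRCm38.p6), so no coordinates of the mm9 alignment are used. Intervals and floors for Igfbp4 and Igfbp3 cover counting error only. The alternatives tried are under the closing section.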

Additional observations from a re-analysis of the deposited data

How the results depend on the processing

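Over 9 settings, 441 of 465 values of single genes kept their direction and side of the threshold, 16 lost and 8 gained a call, and 0 changed direction. Settings that altered only the standard errors, the adjustment or the filters left the folds unchanged, so direction could not change in them. Most of the values had no call in the main setting and so none to lose. With a Holm adjustment none of the 8 genes passed in any comparison, against 2, 1 and 3 for OHT, dox and OHT+dox against mock, and 0 passed in OHT+dox against dox (1) and OHT against dox (2); Irs1 in OHT against dox came closest (adjusted p = 0.0515). With a fold minimum of 0.5 only Igf1 was called, 1 gene each for OHT and OHT+dox against mock and 0 for dox against mock, OHT+dox against dox and OHT against dox. With standard errors shrunk until the interaction z-values had unit spread, 2 genes passed in OHT+dox against OHT (Irs1 and Insr), 4 in OHT+dox against dox and 4 in OHT against dox, Igf1 and Igf1r among both. With a prior standard deviation 1.3 times larger, 2 passed in OHT+dox against dox, the added one being Igf1 (−0.41, adjusted p = 0.0462). Counts over all genes moved in the same settings. For OHT, dox and OHT+dox against mock, 2661, 1323 and 4902 genes were called, 1150, 489 and 2528 with the fold minimum, 725, 293 and 1781 with Holm, and 4910 and 3491 for OHT and dox with scaled standard errors. In OHT+dox against OHT, OHT+dox against dox and OHT against dox these were 586, 2647 and 1992, then 234, 1123 and 909, then 145, 666 and 579, then 2367, 4917 and 3994. For the interaction 0 became 35 with scaled standard errors, 2 with the larger prior and 3 with a prior 0.8 times as large. The cause was not tested beyond the construction of each setting. The share of calls that were higher moved by over 10 points only with Holm, to 78.3%, 76.8%, 66.2% and 70.6% for OHT and dox against mock and for OHT+dox against OHT and dox. No paired analysis was possible because no value per library is given, and leaving out 1 library was not run for the same reason. Few reads left Igfbp4 and Igfbp3 without a test.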
